A study of Mus musculus with 6 samples.

Results

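The genes examined were 34 markers of the layers of the cerebral cortex, read in the prefrontal cortex of *Pla2g4e* knockout (KO) and wild-type (WT) mice. They were chosen by name, from known markers of upper- and deep-layer projection neurons, and were matched by gene identifier in the count tables. All 34 were among the 56923 genes listed, and all 34 were among the 19084 genes that passed a filter of at least 6 fragments in at least 1 library. *Ctgf* is also named *Ccn2*. By the layer each is known to mark, 13 stood for the upper layers, 5 for layer 5, 9 for layer 6, 4 for layer 6b and 3 for several deep layers, so that 21 were deep-layer genes. Polyadenylated RNA was sequenced in 3 KO and 3 WT samples, and fragments were counted per gene. KO mice, on a C57BL/6N-A tm1Brd background, carried the constitutive *Pla2g4e* tm2a allele, a gene trap in which LacZ captures the transcript. The study tested for loss of the protein in the hippocampus and brain sections of this line, and those measurements were not analysed here. The labels name WT animals only as wild type, and they give no age, sex or litter. By the study's methods, the sample was a front piece of the brain taken with a coronal cut, and mice of both sexes were used.

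The cerebral cortex is built of layers of projection neurons that are born in sequence and send their axons to different targets. Upper-layer neurons connect cortical areas with each other, layer 5 neurons project to the striatum, brainstem and spinal cord, and layer 6 neurons project mainly to the thalamus, while layer 6b holds neurons that persist from the subplate. A network of transcription factors separates these fates, with *Cux1*, *Cux2* and *Pou3f2* in upper layers, *Fezf2* and *Bcl11b* in layer 5 and *Tbr1* and *Sox5* in layer 6, and many of them stay on in the adult, so that their RNA reads out the layers present in a piece of tissue. In bulk RNA, fewer cells of a type and less RNA per cell cannot be told apart.

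Promoter sequence was available for 25 of the 34 members in RefSeq (build GRCm38.p6), with 37 promoters in all. Those shown are of 6 members that make up the library patterns described further on, each printed in the direction of its gene and covering the 250 bases before its start. Capitals mark the letters of a motif that was searched for. The first 3 belong to *Fezf2* (chr14:12345866-12346115, minus strand), *Rprm* (chr2:54085553-54085802, minus strand) and *Hs3st4* (chr7:123982578-123982827, plus strand), deep-layer members that were lowest in KO replicate 1 and highest in WT replicate 2. *Fezf2* lies on the minus strand in GRCm38.p6 and on the plus strand in GRCm39, the build of the count tables.
Fezf2: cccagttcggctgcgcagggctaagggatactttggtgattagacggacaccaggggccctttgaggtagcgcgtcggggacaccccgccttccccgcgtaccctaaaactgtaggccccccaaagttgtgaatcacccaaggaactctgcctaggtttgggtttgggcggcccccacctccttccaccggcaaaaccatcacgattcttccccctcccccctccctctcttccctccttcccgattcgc
Rprm: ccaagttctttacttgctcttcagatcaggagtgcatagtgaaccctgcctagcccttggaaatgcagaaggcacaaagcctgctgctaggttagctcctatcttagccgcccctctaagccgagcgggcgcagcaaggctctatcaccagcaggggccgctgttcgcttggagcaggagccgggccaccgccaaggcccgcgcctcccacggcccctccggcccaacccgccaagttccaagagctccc
Hs3st4: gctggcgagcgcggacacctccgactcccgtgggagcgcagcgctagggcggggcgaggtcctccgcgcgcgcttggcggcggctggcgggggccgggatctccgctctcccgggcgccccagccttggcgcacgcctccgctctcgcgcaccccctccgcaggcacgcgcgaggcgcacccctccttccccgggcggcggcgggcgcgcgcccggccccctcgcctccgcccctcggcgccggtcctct

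The other 3 belong to *Nr4a2* (chr2:57124004-57124253, minus strand), *Ntng2* (chr2:29248100-29248349, minus strand) and *Lmo3* (chr6:138581969-138582218, minus strand), deep-layer members whose highest values were in KO replicate 2 and WT replicate 3.
Nr4a2: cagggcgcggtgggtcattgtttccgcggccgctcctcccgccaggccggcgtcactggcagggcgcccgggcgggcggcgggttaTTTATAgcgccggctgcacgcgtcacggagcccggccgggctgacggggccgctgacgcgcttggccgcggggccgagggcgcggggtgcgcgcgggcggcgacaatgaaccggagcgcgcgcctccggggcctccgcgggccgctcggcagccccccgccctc
Ntng2: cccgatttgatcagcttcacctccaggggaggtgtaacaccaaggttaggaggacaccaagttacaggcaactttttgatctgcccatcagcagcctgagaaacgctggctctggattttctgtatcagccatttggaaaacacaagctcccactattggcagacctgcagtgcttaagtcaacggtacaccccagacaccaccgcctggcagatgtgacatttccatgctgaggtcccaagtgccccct
Lmo3: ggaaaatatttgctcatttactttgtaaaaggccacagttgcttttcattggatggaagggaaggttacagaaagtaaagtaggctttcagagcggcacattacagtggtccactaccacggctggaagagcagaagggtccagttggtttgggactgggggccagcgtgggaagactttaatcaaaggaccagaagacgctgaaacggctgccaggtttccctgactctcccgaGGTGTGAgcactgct

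Searched on both strands were GGTGTGA for T-box factors such as Tbr1, TGTTTAC for forkhead factors such as Foxp1 and Foxp2, ATCGAT for Cux factors, ATGCAAAT for POU factors, AAAGGTCA for Nr4a2, TGACGTCA for the cyclic AMP response element and TATAAA for the TATA box. The T-box letters stood 15 bases before the start in *Lmo3*. The TATA letters stood 164 bases before the start in *Nr4a2*, on the opposite strand. The other 4 sequences shown held none of the motifs. Over the 37 member promoters, TATAAA was in 5 (*Nr4a2*, *Slc30a3*, *Cux2*, *Etv1* and *Inhba*), or 13.5%, against 12.4% of all 32851 promoters. GGTGTGA was in 2 (*Slc30a3* and *Lmo3*), or 5.41%, against 3.33%. ATCGAT was in 1, in *Cux2*, against 0.728% of all promoters, and TGTTTAC was in 1, in *Cux1*, against 3.17%. AAAGGTCA, ATGCAAAT and TGACGTCA were in 0 of the 37, with 1.34%, 1.6% and 1.55% of all promoters holding them. Member promoters had a median GC content of 62.8%, against 52.4% over all promoters. These matches describe the letters in a window of 250 bases and no more.

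Library totals ranged from 11792463 to 14594230 fragments, and the members were counted at 18 to 3549 fragments per library. Counting error alone was 23.6% at the lowest member count and 1.68% at the highest, without the part that amplification adds. CPM here means the fragments of a gene per 1e6 of its library, after scaling between libraries. *Pla2g4e* was counted in all 3 KO libraries, at 5.95, 8.12 and 7.97 CPM against 7.84, 11.3 and 13.2 in WT. The first of the WT values, from the library labelled WT replicate 1, fell among those of KO, and directions are given by the labels. The libraries also differed in ways that cut across the groups. *Xist* was high only in replicate 1 of each group, and Y-linked genes were high only in the other 4 libraries. All 8 markers of the olfactory bulb were highest in KO replicate 1, and 7 of 8 were lowest in WT replicate 2. Their summed level was 312, 99.2 and 70.2 CPM in KO against 95.9, 37.6 and 74.5 in WT. One of them, *Eomes*, was at 23.3 CPM in KO replicate 1 and at 0 in WT replicate 2. Of 12 markers of striatal projection neurons, 10 had KO replicate 2 and WT replicate 3 as their highest pair of libraries, and 0 of the 12 were undetected in any library. Their sum was 353, 462 and 351 CPM in KO against 263, 266 and 439 in WT.

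Markers of every layer were detected in every library, as the label of cortex requires. Levels are compared between genes only per kilobase of exon (CPM divided by the exon length of the gene, which counts the exons of all isoforms), as the WT mean ± SD of 3 libraries. *Lmo4*, a LIM-only adaptor of transcription complexes, stood highest at 78.4 ± 4.12. The upper-layer genes *Lamp5* (48 ± 1.34) and *Slc30a3* (42.8 ± 2.68) followed, and the layer 6 genes *Rprm* (32.7 ± 9.44) and *Tbr1* (30.6 ± 2.57) came next. *Rprm* and *Tbr1* did not differ beyond their spread. At the low end stood *Foxp2* (0.797 ± 0.177), *Nxph4* (1.6 ± 0.63) and *Zfpm2* (1.84 ± 0.395), of which the last pair overlapped within their SD. The levels thus covered a wide range within each layer.

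**Figure D1:**
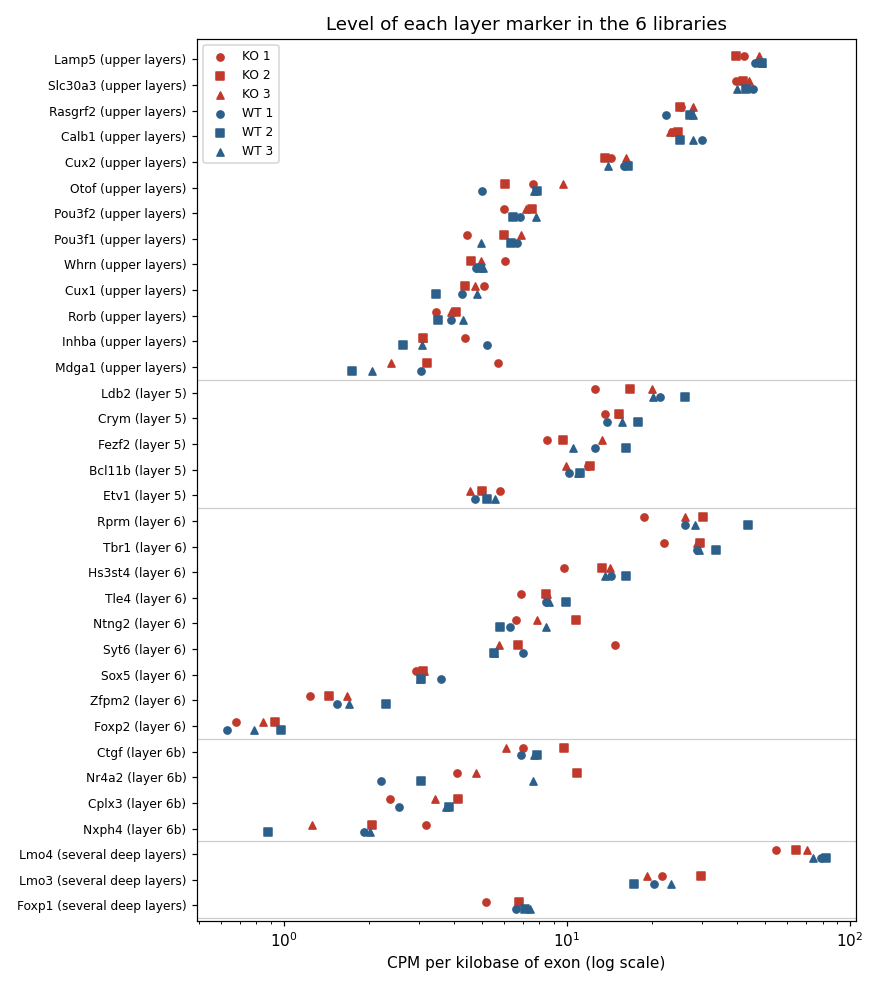
Level of each of the 34 layer markers in CPM per kilobase of exon (log scale), one point per library, KO in red and WT in blue, grouped by layer and ordered within each layer by the mean over all libraries. Red and blue points intermingled for most genes, and in *Lmo4*, *Ldb2* and *Calb1* all 3 red points lay to the left of the blue ones.

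With p-values adjusted over all genes, no layer marker differed between KO and WT in limma-voom (0 of 34, with 0.0% of all 19084 genes called). Without adjustment, 4 members had an unadjusted p-value under 0.05. These were *Lmo4*, *Ldb2* and *Calb1*, lower in KO, and *Mdga1*, higher in KO. That is 11.8% of the members, against 7.82% of all genes (3.44% lower and 4.38% higher in KO). DESeq2 called 1 gene and the quasi-likelihood test of edgeR called 0 genes at the adjusted threshold, neither of them calling a member. At an unadjusted p-value under 0.05 they gave 902 and 1507 genes (4.73% and 7.9% of all), of which 3 and 5 were members. The CPM values of the groups did not overlap for 3 members, all lower in KO, which is 8.82% of the members against 13% of all genes (6.29% lower and 6.72% higher). The median log2 fold change (KO against WT) was -0.04 over the members, with 21 lower and 13 higher, and 0.01 over all genes tested. Of the members 61.8% were lower, against 48.1% of all genes.

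**Figure D2:**
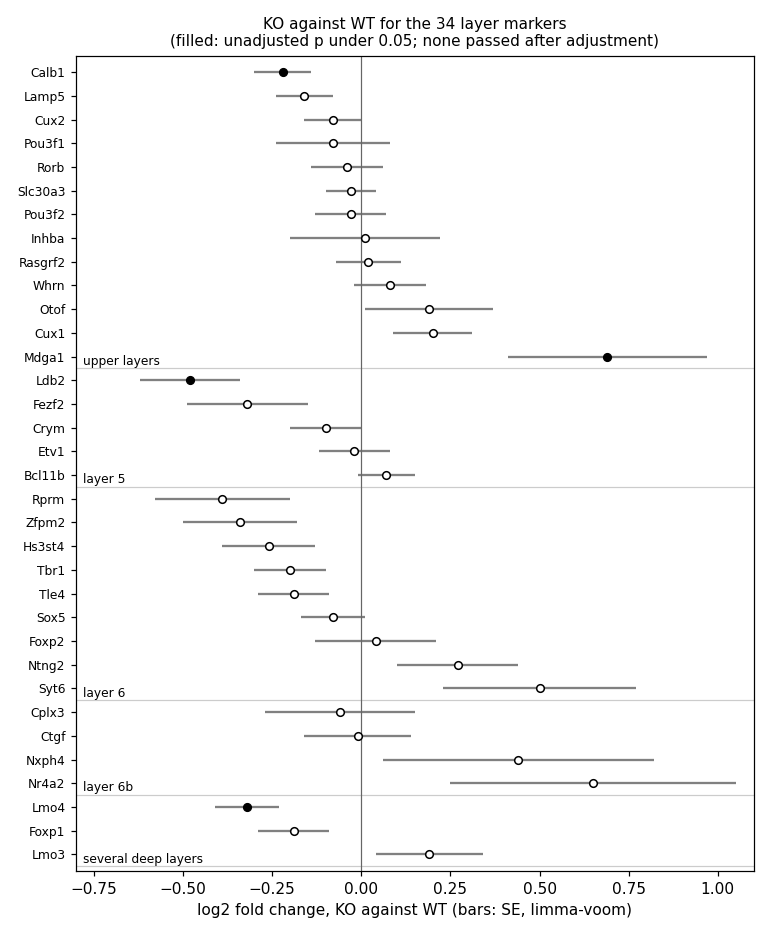
Log2 fold change of each layer marker in KO against WT from limma-voom (points) with its SE (bars), grouped by layer and ordered within each layer, with filled points for an unadjusted p-value under 0.05. The filled points are *Calb1*, *Mdga1*, *Ldb2* and *Lmo4*, and values ran from -0.48 in *Ldb2* to 0.69 in *Mdga1*.

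The 13 upper-layer markers held no common direction. In KO, 7 were lower and 6 were higher, with a median log2 fold change of -0.03. *Cux2* (chr5:121994429-122188165 in GRCm39), a homeodomain transcription factor that marks upper-layer neurons, was at 144, 137 and 163 CPM in KO against 160, 166 and 141 in WT. The groups overlapped (log2 fold change -0.08, SE 0.08, limma-voom unadjusted p = 0.38). *Rorb* (chr19:18907969-19088560), the nuclear receptor of layer 4 neurons, was at 38.2, 45.1 and 43 CPM in KO against 43.2, 38.7 and 47.6 in WT. It too overlapped, with a log2 fold change of -0.04 (SE 0.10). Both layer-defining genes of this group were thus within the spread of the libraries.

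*Calb1* (chr4:15881264-15908064), which encodes the calcium-binding protein calbindin, was at 114, 120 and 112 CPM in KO against 146, 122 and 135 in WT. Every KO library was below every WT library, though KO replicate 2 and WT replicate 2 were close. That difference was -0.22 on the log2 scale (SE 0.08, limma-voom unadjusted p = 0.014, adjusted p = 0.635). The unadjusted p-value was 0.0524 without KO replicate 3 and 0.0655 without the library labelled WT replicate 1. *Calb1* is also known in striatal projection neurons and interneurons.

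*Mdga1* (chr17:30046923-30189061), a membrane-anchored adhesion protein that binds neuroligins, was at 54.3, 30.4 and 22.7 CPM in KO against 29.1, 16.5 and 19.5 in WT. It had the lowest WT mean per length of the upper-layer group and the largest log2 fold change of the 34 members, 0.69 (SE 0.28, unadjusted p = 0.0311 and adjusted p = 0.635 in limma-voom). The groups overlapped, since KO replicate 3 was below the library labelled WT replicate 1. KO replicate 1 was 2.3 times the mean of the other 5 libraries. Without that library the log2 fold change was 0.31 (unadjusted p = 0.123), and without WT replicate 2 it was 0.51 (unadjusted p = 0.121). With a covariate for Y-linked expression, low only in replicate 1 of each group, the adjusted p-value was 0.0319. Over all alternatives it ranged from 0.0319 to 0.999. KO replicate 1 was also the library with the highest olfactory bulb markers and WT replicate 2 the one with the lowest, and the part of these in the *Mdga1* values was not tested.

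*Lamp5*, which encodes a membrane protein of the lysosomal family and marks both superficial neurons and a class of interneurons, had the highest level per length of the upper layers. It was at 124, 116 and 140 CPM in KO against 136, 143 and 143 in WT, overlapping only through KO replicate 3 (log2 fold change -0.16, SE 0.08, unadjusted p = 0.0595). *Cux1*, the homologue of *Cux2*, was at 94.8 ± 7.5 CPM in KO against 83.4 ± 13.6 in WT, with a log2 fold change of 0.20 (SE 0.11) that was 0.07 without WT replicate 2. The remaining upper-layer members differed by at most 0.19 on the log2 scale. *Rasgrf2*, an exchange factor for Ras, was at 217 ± 12.6 CPM in KO against 215 ± 25.6 in WT. *Slc30a3*, the transporter that loads zinc into synaptic vesicles, was at 119 ± 6.14 and 121 ± 7.61 CPM. *Slc30a3* was among the steadiest members, with a coefficient of variation of 5.17% in KO and 6.26% in WT. The POU-domain transcription factors *Pou3f1* and *Pou3f2* had log2 fold changes of -0.08 and -0.03. *Whrn*, a scaffold protein, *Otof*, a calcium sensor of vesicle release, and *Inhba*, a subunit of activin, had 0.08, 0.19 and 0.01. *Otof* ranged from 39.6 to 76.5 CPM and *Inhba* from 16.9 to 33.4 CPM over the 6 libraries, so neither was steady within a group.

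Of the 5 layer 5 markers, 4 were lower in KO and 1 was higher, with a median log2 fold change of -0.10. *Ldb2* (chr5:44629474-44957022), a binding partner of LIM-domain transcription factors, was at 42.1, 55.6 and 66.4 CPM in KO against 71.1, 87.2 and 67 in WT. Every KO library was below every WT library, with KO replicate 3 and WT replicate 3 nearly equal. A log2 fold change of -0.48 (SE 0.14) was the most negative of the 34 members (limma-voom unadjusted p = 0.00569, adjusted p = 0.635). It ranged from -0.63 to -0.29 with 1 library left out. Its value was -0.29 without KO replicate 1, and its adjusted p-value was never below 0.183 under any alternative. *Ldb2* also had the highest level per length in layer 5.

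*Fezf2* (chr14:10121574-10127669), the zinc-finger factor that specifies neurons projecting below the cortex, was at 25.9, 29.6 and 40.7 CPM in KO against 38.4, 49.4 and 32 in WT. KO replicate 3 exceeded 2 of the 3 WT libraries. KO differed from WT by -0.32 on the log2 scale (SE 0.17, unadjusted p = 0.0793), and the value was -0.17 without KO replicate 1, -0.16 without WT replicate 2 and -0.51 without KO replicate 3. *Bcl11b* (chr12:107876662-107969861), known as CTIP2 and active downstream of *Fezf2*, was at 96.3, 98.2 and 80.4 CPM in KO against 82.3, 90.6 and 88.5 in WT (log2 fold change 0.07, SE 0.08, unadjusted p = 0.433). Its fitted difference was opposite in sign to that of *Fezf2*, ranging from 0.01 to 0.16 with 1 library left out, and the groups overlapped. *Bcl11b* is also strongly expressed in striatal projection neurons. *Etv1*, an ETS-domain factor with the lowest level per length in layer 5, was at 77.3, 66.7 and 60.4 CPM in KO against 63.2, 69.4 and 74.2 in WT. Those groups covered each other almost wholly (log2 fold change -0.02, SE 0.10). *Crym*, a thyroid hormone-binding protein, was at 50 ± 3.19 CPM in KO against 53.6 ± 6.78 in WT.

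Of the 9 layer 6 markers, 6 were lower and 3 higher in KO. Their median log2 fold change was -0.19, and 0 had an unadjusted p-value under 0.05 in limma-voom, the lowest being 0.0555. *Tbr1* (chr2:61633274-61644458), the T-box factor that specifies corticothalamic neurons, was at 121, 162 and 158 CPM in KO against 158, 184 and 161 in WT. KO replicate 1 alone was far below the rest, and KO replicates 2 and 3 lay beside WT replicates 1 and 3. The difference of -0.20 (log2, SE 0.10, unadjusted p = 0.0784) became -0.06 without KO replicate 1. *Rprm* (chr2:53974105-53975564), whose product Reprimo is a cell-cycle arrest protein, had the highest WT mean per length in layer 6, within the spread of *Tbr1*, whose KO mean was the higher (26.8 ± 4.11 against 25 ± 5.78 CPM per kilobase). It was at 27.4, 44 and 38.3 CPM in KO against 38.3, 63.6 and 41.4 in WT. Its log2 fold change of -0.39 (SE 0.19, unadjusted p = 0.0626) rested on 2 libraries, and was -0.18 without KO replicate 1 and -0.17 without WT replicate 2.

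*Foxp2* (chr6:14901348-15441976), a forkhead factor of layer 6 neurons that is also expressed in striatum, was at 11.1, 15.2 and 13.8 CPM in KO against 10.3, 16 and 12.8 in WT. The groups overlapped throughout (log2 fold change 0.04, SE 0.17), and it had the lowest level per length of all members. Of the other layer 6 genes, those with lower means in KO were *Zfpm2*, a cofactor of GATA-type factors (-0.34, SE 0.16), *Hs3st4*, an enzyme that sulfates heparan sulfate (-0.26, SE 0.13), *Tle4*, a corepressor (-0.19, SE 0.10), and *Sox5*, an SRY-box factor (-0.08, SE 0.09). Their unadjusted limma-voom p-values were 0.0555, 0.058, 0.084 and 0.371. Leaving out KO replicate 1 brought *Hs3st4* to -0.09 and *Tle4* to -0.08, and leaving out WT replicate 2 brought *Zfpm2* to -0.17. In none of these were the groups apart, and *Hs3st4* ranged from 31.2 to 45.2 CPM in KO and 43.4 to 51.5 CPM in WT. *Ntng2*, which encodes the membrane-anchored axonal protein netrin-G2, was higher in KO by 0.27 (SE 0.17, unadjusted p = 0.143), with KO replicate 2 highest at 42.9 CPM. Its log2 fold change was 0.08 without that library and 0.44 without KO replicate 1. With the mean of the striatal markers as a covariate it was 0.12.

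*Syt6*, a synaptotagmin of layer 6 neurons, is given in full because its values, once seen, stood apart in 1 library. It was at 86.4, 39.3 and 33.5 CPM in KO against 40.7, 32.2 and 32.3 in WT. KO replicate 1 was 2.43 times the mean of the other 5 libraries, which together spanned only 32.2 to 40.7 CPM. The log2 fold change was 0.50 (SE 0.27, unadjusted p = 0.0957) with that library and 0.06 without it. *Syt6* was thus high in the library in which *Tbr1*, *Tle4*, *Rprm*, *Hs3st4* and *Zfpm2* were lowest. The olfactory bulb markers were highest in the same library, and their part in the *Syt6* values was not tested.

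The 4 layer 6b markers included the least steady pair of members, *Nr4a2* and *Nxph4*, whose highest library was 4.95 and 3.62 times the lowest, while *Cplx3* (1.74) and *Ctgf* (1.6) were near the other deep-layer genes. This ratio had a median of 2.68 in layer 6b, carried by the first pair, against 1.65 over all deep-layer members, 1.3 over upper-layer members and 1.31 over the 15254 genes with a mean of at least 1 CPM. *Ctgf* (chr10:24471340-24474581), a secreted matrix-associated protein that marks the subplate-derived layer, was at 20.1, 27.9 and 17.4 CPM in KO against 19.7, 22.5 and 21.9 in WT. Both the highest and the lowest library were KO, and the log2 fold change was -0.01 (SE 0.15, unadjusted p = 0.966). *Nxph4* (chr10:127361342-127370428), which encodes the neurexin ligand neurexophilin 4, was at 5.34, 3.43 and 2.11 CPM in KO against 3.21, 1.47 and 3.37 in WT. It had the fewest fragments of the members, and its log2 fold change was 0.44 (SE 0.38, unadjusted p = 0.27). It was 0.07 without KO replicate 1 and likewise 0.07 without WT replicate 2. *Cplx3*, a complexin that regulates vesicle fusion, was at 9.78 ± 2.61 CPM in KO against 9.94 ± 2.09 in WT.

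*Nr4a2* (chr2:56996842-57014015), the nuclear receptor Nurr1, is given in full for its spread, which was the widest of the members. It was at 16.6, 44.2 and 19.3 CPM in KO against 8.94, 12.4 and 30.7 in WT, a ratio of 4.95 between the highest and the lowest library. Its log2 fold change of 0.65 (SE 0.40, unadjusted p = 0.136) became 0.23 without KO replicate 2, 0.26 without the library labelled WT replicate 1 and 1.16 without WT replicate 3. With the mean of the striatal markers as a covariate it was 0.25. *Nr4a2* is known in layer 6b and in the claustrum, next to the striatum, and is also induced by neuronal activity. KO replicate 2 and WT replicate 3 were its highest libraries and those of the striatal markers. The 5 claustrum and endopiriform markers deviated from their mean by -0.18, 0.21 and 0.03 in KO against -0.18, -0.07 and 0.19 in WT on the log2 scale. Their mean was highest in the same libraries, but only 1 of the 5, *Gnb4*, had both as its highest pair, and their part in the *Nr4a2* values was not tested.

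Of the 3 genes of several deep layers, *Lmo4* (chr3:143894291-143910981) had the lowest p-value of all 34 members. It was at 194, 228 and 248 CPM in KO against 278, 290 and 262 in WT. Every KO library was below every WT library. Its mean was 223 ± 27.1 CPM in KO against 277 ± 14.5 in WT (SD, n = 3). On the log2 scale the difference was -0.32 (SE 0.09, limma-voom unadjusted p = 0.00299, adjusted p = 0.635). It stayed between -0.39 and -0.22 over the 14 alternatives, with adjusted p-values from 0.183 to 0.925. *Lmo4* is expressed in upper as well as deep layers in some cortical areas, and it binds the same Ldb family of proteins to which *Ldb2* belongs. *Lmo3*, its relative, overlapped between the groups, at 121 ± 29 CPM in KO against 104 ± 16 in WT, with KO replicate 2 highest at 153 CPM. The log2 fold change of *Lmo3* was 0.19 (SE 0.15), 0.01 without that library and 0.07 with the striatal covariate. *Foxp1*, a forkhead factor shared with striatum, was at 71.4, 93.1 and 93.3 CPM in KO against 90.7, 98 and 102 in WT. Only KO replicate 1 lay clearly below the others (log2 fold change -0.19, SE 0.10, unadjusted p = 0.0887), and without it the difference was -0.05.

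With a covariate for Y-linked expression, 12 members had an unadjusted p-value under 0.05 in limma-voom, 10 of them lower and 2 higher in KO. The added ones included 6 layer 6 genes, of which *Tbr1*, *Rprm*, *Hs3st4*, *Zfpm2* and *Tle4* were lower in KO and *Syt6* was higher (0.54 on the log2 scale, unadjusted p = 0.00152). *Lamp5* and *Foxp1*, both lower, were the remaining additions. Under that covariate 2023 of all genes (10.6%) had such a p-value, against 1492 (7.82%) without it. The covariate was -5.44 in KO replicate 1 and -5.19 in WT replicate 1, against 2.6 to 2.71 in the rest. It thus set the replicate 1 libraries apart, and sex cannot be told apart from other traits of those libraries, such as the olfactory bulb markers of KO replicate 1.

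Much of the variation of the layer markers ran between libraries and not between groups. KO replicate 1 was the lowest library for 16 of the 34 members (47.1%), against 21.7% of all genes at 1 CPM or more, and 12 of these 16 were deep-layer genes. WT replicate 2 was the highest library for 12 members (35.3%), against 19.3% of all genes, and 10 of these were deep-layer genes. *Ldb2*, *Fezf2*, *Rprm*, *Zfpm2*, *Tbr1*, *Tle4*, *Hs3st4*, *Crym* and *Lmo4* shared this pattern. In *Ldb2*, *Fezf2*, *Rprm* and *Zfpm2*, where WT replicate 2 stood furthest above the rest, KO replicate 1 was at 0.606, 0.681, 0.607 and 0.715 times the mean of the other 5 libraries. WT replicate 2 was at 1.44, 1.48, 1.68 and 1.51 times the mean of the others in the same genes. In contrast, 5 members (*Nr4a2*, *Ntng2*, *Lmo3*, *Rorb* and *Pou3f2*) had KO replicate 2 and WT replicate 3 as their highest pair, which is 14.7% of the members against 7.55% of all genes at 1 CPM or more. *Rorb* and *Pou3f2* varied little among these, with a highest library 1.25 and 1.29 times the lowest. With the striatal covariate their log2 fold changes were -0.11 and -0.1.

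**Figure D3:**
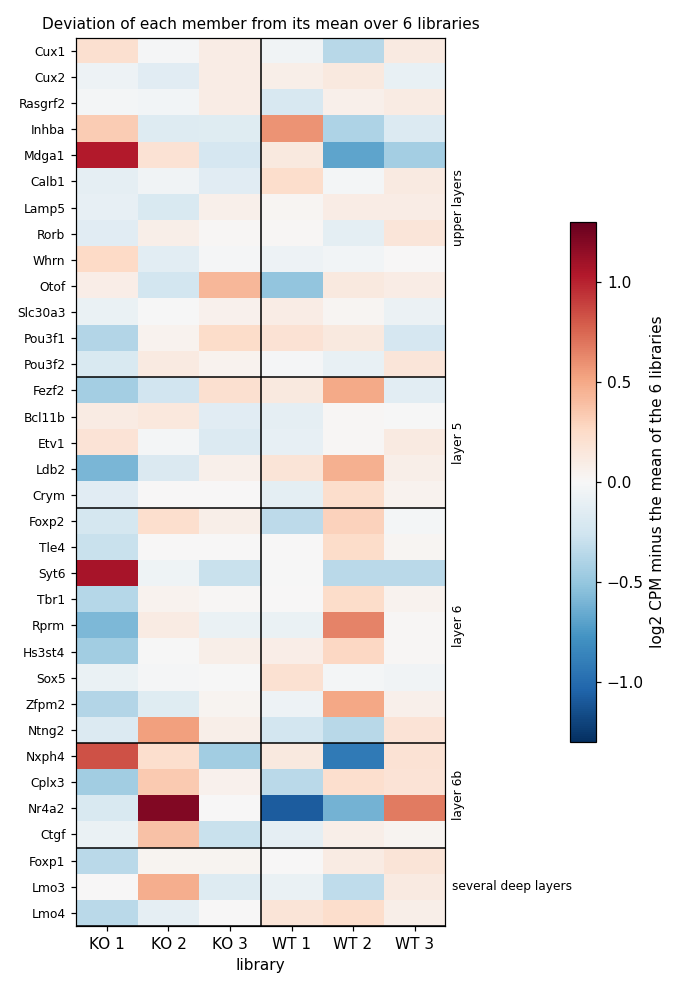
Deviation of log2 CPM (prior count 2) from the mean of the 6 libraries for each of the 34 layer markers (rows, grouped by layer) in each library (columns), red for higher and blue for lower. KO 1 is blue for many deep-layer genes and dark red for *Mdga1*, *Syt6* and *Nxph4*, WT 2 is red for most genes of layers 5 and 6, and *Nr4a2* is dark red in KO 2.

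**Figure D4:**
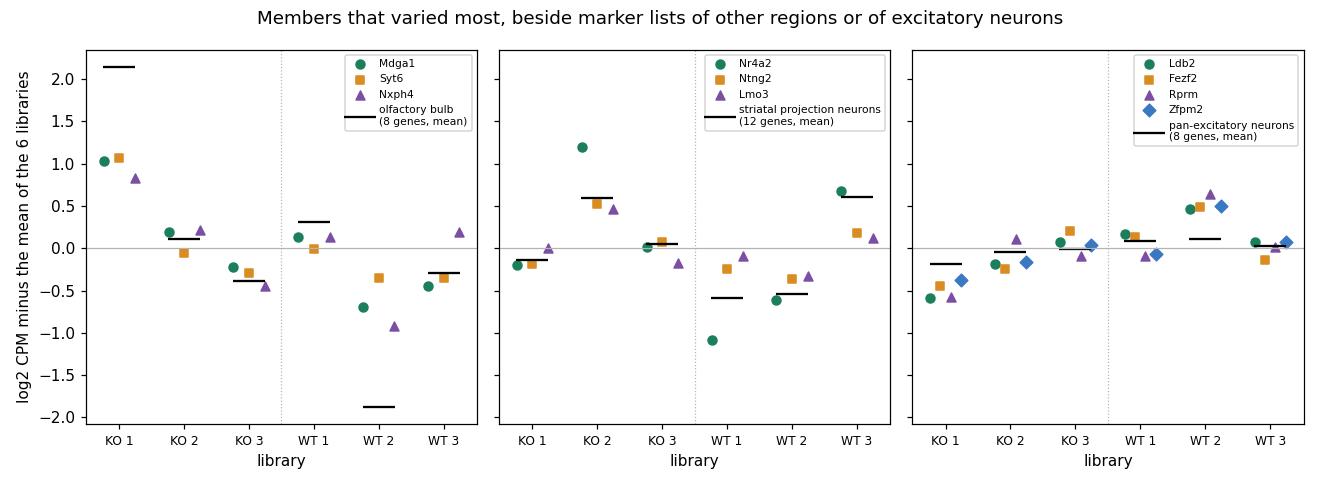
Deviation of log2 CPM from the mean of the 6 libraries for 10 layer markers of wide spread (symbols) beside the mean deviation of 3 marker lists of other tissue or of all excitatory neurons (black lines), in each library. KO 1 is highest in the left panel, with the olfactory bulb mean at 2.15, KO 2 and WT 3 have the highest means in the middle panel, at 0.60 and 0.61 for striatal markers, and KO 1 is lowest and WT 2 highest for all 4 genes in the right panel.

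Layer composition per library was read as a score, the mean deviation of log2 CPM over the genes of a layer. The upper-layer score was 0.06, -0.04 and 0.05 in KO against 0.04, -0.09 and -0.01 in WT. The deep-layer score was -0.14, 0.14 and -0.04 in KO against -0.09, 0.07 and 0.07 in WT. Neither separated the groups. The upper minus deep score was 0.20, -0.18 and 0.09 in KO against 0.13, -0.16 and -0.08 in WT. Its mean was 0.04 ± 0.20 in KO and -0.04 ± 0.15 in WT (SD, n = 3), a difference of 0.07 that was smaller than the SD of either group. KO replicates 1 and 3 and the library labelled WT replicate 1 were on the upper side, and the other 3 libraries were on the deep side. With the median over members in place of the mean, WT replicate 3 was on the upper side too, at 0.05. The highest deep-layer score was then in WT replicate 2 (0.22) and not in KO replicate 2 (0.04). For KO replicate 1 the upper-layer score became -0.07, the lowest of the libraries, and the upper minus deep score was 0.16. The upper-layer difference was then -0.05 in place of 0.04 and the deep-layer difference -0.13 in place of -0.03, while the upper minus deep difference was 0.07 as before. Left out in turn, single libraries put the difference between -0.01 and 0.18.

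Among the deep layers, the layer 5 score was -0.18, -0.06 and -0.01 in KO against -0.01, 0.24 and 0.02 in WT. It had the most negative difference, -0.17, and WT replicate 2 alone was well above the rest. The layer 6 score differed by -0.07, with KO replicate 1 at -0.17 and WT replicate 2 at 0.16. The layer 6b score was 0.02, 0.54 and -0.17 in KO against -0.36, -0.31 and 0.27 in WT, where the difference of 0.26 was below the SD of each group (0.36 and 0.35). Since 6 members are also known in striatal projection neurons (*Foxp1*, *Foxp2*, *Bcl11b*, *Tle4*, *Crym* and *Calb1*), the scores were taken without them too. The upper minus deep difference was then 0.08.

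**Figure D5:**
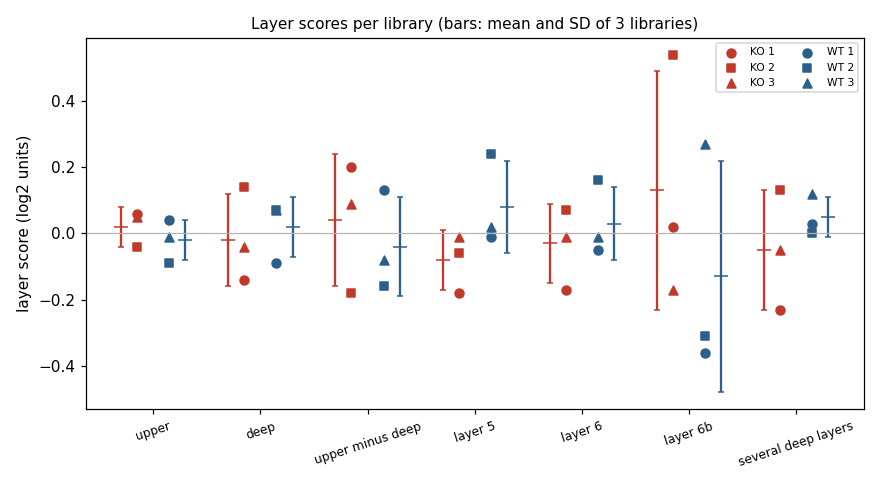
Layer score of each library (points, mean deviation of log2 CPM over the genes of a layer), with the mean and SD of 3 libraries per group (bars), KO in red and WT in blue. The groups overlapped for the upper, deep and upper minus deep scores, and the spread was widest in layer 6b, from -0.36 in WT 1 to 0.54 in KO 2.

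Other layer genes, not among the 34, were read the same way. Of 13 further upper-layer genes, 7 were lower and 6 higher in KO (median log2 fold change -0.07), and 3 had an unadjusted p-value under 0.05, all lower, which is 23.1% of them against 3.44% of all genes. *Bhlhe22*, a basic helix-loop-helix factor, was at 41.4, 38.9 and 44.5 CPM in KO against 45.9, 50.5 and 49.8 in WT, with no overlap (-0.23, SE 0.08, unadjusted p = 0.0151). *Cdh13*, a cadherin, had -0.25 (SE 0.10, unadjusted p = 0.0239) with overlapping groups. Of 16 further deep-layer genes, 6 were lower and 10 higher (median 0.03). Only *Svil*, a regulator of the actin cytoskeleton, had an unadjusted p-value under 0.05 (0.45, SE 0.19, unadjusted p = 0.0404 in limma-voom). Of all genes, 7.82% had such a p-value, with 4.38% higher in KO.

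Of 8 markers of excitatory neurons of any layer, 8 had a lower fitted level in KO, against 48.1% of all genes. Their median log2 fold change was -0.15. An unadjusted limma-voom p-value under 0.05 was reached by 2 of them, lower in KO (25% against 3.44% of all genes). The groups did not overlap for 1 of the 8, against 13% of all genes. For *Camk2a*, a kinase of excitatory synapses, the difference was close to 0 (unadjusted p = 0.993). *Neurod6*, a transcription factor of cortical excitatory neurons, was at 60.7, 78.1 and 76.8 CPM in KO against 113, 85.7 and 89.2 in WT, with no overlap (-0.42, SE 0.12, unadjusted p = 0.00348 and adjusted p = 0.635 in limma-voom). *Nrgn*, which encodes the calmodulin-binding protein neurogranin, had -0.22 (SE 0.08, unadjusted p = 0.0192). *Slc17a7*, which loads glutamate into vesicles, was at 1161, 1483 and 1460 CPM in KO against 1628, 1600 and 1389 in WT. The list was lowest in KO replicate 1, at a mean deviation of -0.18 and with 6 of its 8 genes lowest there, which was also the lowest library for 12 of the 21 deep-layer members. Its mean deviation was 0.11 in WT replicate 2 and 0.09 in the library labelled WT replicate 1, and 1 and 3 of the 8 genes were highest in these. WT replicate 2 was the highest library for 10 of the 21 deep-layer members, and the part of this list in the member values was not tested.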

How the data were processed

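RNA from prefrontal cortex was prepared with a stranded kit for polyadenylated RNA in 3 KO and 3 WT samples, grouped by title. The deposited values are raw counts of fragments per gene. Per the submitters' processing notes, the authors used FastQC 0.11.8, STAR 2.7.9a and featureCounts 1.6.0. Per the file headers, counts were made over exons in paired-end mode with strand option 2 on GENCODE annotation of GRCm39, whereas the study's methods name an earlier build and annotation. Coordinates are those of the files, and promoters are from RefSeq on GRCm38.p6. The header lists no option for fragments that map to several places, which were therefore not counted. Library totals of 11792463 to 14594230 fragments set the counting error.

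Symbols were matched by gene identifier for 52073 of 56923 genes. As in the study's methods, genes with fewer than 6 counts in every library were left out, and KO and WT were compared by limma-voom (limma 3.58.1, edgeR 4.0.16 with TMM scaling, R 4.3.3), two-sided, without covariates, with Benjamini-Hochberg adjustment over 19084 genes and a threshold of 0.05. Scores used log2 CPM with a prior count of 2. Scripts were tested on simulated data. The labels do not say whether the samples of a group are separate animals, so p-values measure the spread between these samples. Tried as alternatives were DESeq2 1.42.0, edgeR's quasi-likelihood test, library totals as scaling, no filter beyond 1 count, the filterByExpr filter of edgeR, the replicate number as a block, covariates for Y-linked and for striatal expression, and leaving out each library. Leaving out each library for the layer score was chosen after seeing the data.

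The members and all gene lists were chosen with earlier results of these data known, so no list was tested. Every member was named. Full values were given for members with an unadjusted p-value under 0.05, groups without overlap, or the highest or lowest level per length of their layer, and for *Cux2*, *Rorb*, *Fezf2*, *Bcl11b*, *Tbr1*, *Foxp2* and *Ctgf*. The values of 1 further gene of the other lists are not reported here.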

Additional observations from a re-analysis of the deposited data

How the results depend on the processing

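The median log2 fold change of the upper layers stayed between -0.06 and 0.03 and that of the deep layers between -0.19 and -0.01 under all alternatives, leaving out libraries included, and the upper minus deep difference stayed between -0.01 and 0.18. Over all genes, DESeq2 called 1 gene, the Y-linked covariate called 23, and leaving out a library called 0 to 1 (1 without WT replicate 2). The number of members with an unadjusted p-value under 0.05 was 4 in the analysis as reported (7.82% of all genes). It was 12 with the Y-linked covariate (10.6% of all genes), 7 with no filter beyond 1 count (7.06%) and 6 with the striatal covariate (5.78%). With a library left out it was 3 to 12. Without KO replicates 1, 2 and 3 it was 5, 8 and 12, where all genes gave 4.44%, 7.43% and 8.05%. Without the libraries labelled WT replicates 1, 2 and 3 it was 5, 3 and 7, where they gave 5.38%, 4.13% and 11.8%. The number of members without overlap, 3 as reported, was 3 to 11 with a library left out (10 without KO replicate 3, 11 and 7 without the libraries labelled WT replicates 1 and 3), where fewer samples make separation easier. Of all genes, 13% were without overlap as reported, and 24.3%, 22.2% and 30.8% with those libraries left out. With the replicate number as a block, 12 members and 8.87% of all genes had an unadjusted p-value under 0.05 and 0 genes passed after adjustment. The deviations of same-numbered libraries correlated at 0.267, 0.0591 and -0.0199, and those of differently numbered ones at -0.198 to 0.167. The replicate 1 pair was the highest of all, and both of its libraries were high in *Xist*. Whether the number pairs the samples is not stated in the labels, and these values cannot settle it. Signs turned only among members within 0.20 of no change. *Inhba* was -0.05 in DESeq2, -0.05 with the Y-linked covariate, -0.04 in the quasi-likelihood test and -0.04 with the block. *Ctgf* was 0.02 in DESeq2, 0.03 in the quasi-likelihood test, 0.02 with library totals and 0.02 with the block. *Etv1* was 0.01 with library totals, and *Rasgrf2* was -0.02 and *Foxp2* -0.003 with the striatal covariate. With a library left out, sign turned in 13 members, with ranges of -0.08 to 0.08 for *Rasgrf2*, -0.19 to 0.30 for *Inhba*, -0.12 to 0.03 for *Rorb*, -0.04 to 0.15 for *Whrn*, -0.02 to 0.35 for *Otof*, -0.08 to 0.01 for *Slc30a3*, -0.22 to 0.12 for *Pou3f1*, -0.10 to 0.07 for *Pou3f2*, -0.12 to 0.07 for *Etv1*, -0.13 to 0.19 for *Foxp2*, -0.13 to 0.00051 for *Sox5*, -0.25 to 0.18 for *Cplx3* and -0.19 to 0.13 for *Ctgf*. The cause was not tested. *Lmo4* and *Ldb2* kept an unadjusted p-value under 0.05 under all 14 alternatives. Depth limits *Nxph4* most, at 18 fragments in 1 library.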

Other observations

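Interneurons, which lie in all layers, were read from 10 markers, of which 5 were lower and 5 higher in KO. Of these, 3 of the lower and 1 of the higher had an unadjusted p-value under 0.05, against 3.44% (lower) and 4.38% (higher) of all genes, and 3 had no overlap between the groups, against 13% of all genes. *Sst*, which encodes somatostatin, was at 80.4, 95.3 and 93.1 CPM in KO against 142, 117 and 121 in WT, and *Lhx6*, a factor of the interneurons born in the medial ganglionic eminence, was at 13.7, 15.5 and 14.5 CPM in KO against 19, 19.2 and 16.7 in WT. The groups did not overlap in either gene, with log2 fold changes of -0.50 (SE 0.09, unadjusted p = 0.000114) and -0.33 (SE 0.11, unadjusted p = 0.0104) and adjusted p-values of 0.635 in limma-voom. *Pvalb*, which encodes parvalbumin, was at 20.1, 23 and 24.1 CPM in KO against 27.7, 25.8 and 25.1 in WT, also without overlap (-0.23, SE 0.10, unadjusted p = 0.0357). *Adarb2*, an RNA-editing family member that marks interneurons of caudal origin, was higher in KO by 0.46 (SE 0.16, unadjusted p = 0.0152), and *Gad1* was highest in KO replicate 1 at 581 CPM, where olfactory bulb markers were also highest.

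Among non-neuronal lists, oligodendrocyte markers summed to 2343, 2675 and 2721 CPM in KO against 1814, 2013 and 3009 in WT, with 8 of 10 lowest in WT replicate 1. Astrocyte markers summed to 1806, 1443 and 1557 CPM in KO against 1817, 1311 and 1449 in WT. They were highest in the pair of libraries with *Xist*, and *Gfap* alone was at 329 CPM in WT replicate 1. Endothelial and microglial markers varied little by comparison, from 194 to 245 CPM and from 299 to 364 CPM in all. Meningeal fibroblast markers summed to 94.9, 91.8 and 87.9 CPM in KO against 125, 49.8 and 69.5 in WT. Of these, 5 of 6 were lowest in WT replicate 2. Choroid plexus markers summed to 15.4, 6.7 and 8.51 CPM in KO against 8.15, 35.4 and 7.61 in WT, with 4 of 6 highest in WT replicate 2.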
